A study of Mus musculus with 191 samples.

Results

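The effect of anti-Ly6G antibody on the liver during the dark phase was measured by RNA sequencing of 18 livers, out of 191 samples in the whole series. Of these, 9 livers came from mice given anti-Ly6G and 9 from mice given control IgG, with 3 mice per treatment at each of 3 Zeitgeber times (ZT, counted in hours from lights on), 13, 17 and 21. All were wild-type C57BL/6 mice. Both antibodies were given at 3 µg per g of body weight on consecutive days, and tissue was taken on the third day. The anti-Ly6G antibody was clone 1A8. The samples were all the liver libraries of those times in the liver table, chosen by label and not by any measured value. A share of the mice was housed under a light cycle shifted by 12 h. Which mice these were is not given, so housing and ZT cannot be told apart. Age and sex are not given in the labels, and the count of neutrophils in blood was not used here.

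Ly6G is a surface protein of mouse neutrophils, the short-lived granulocytes that patrol blood and enter tissue in inflammation, and antibody 1A8 is widely used to remove them. Mice eat mostly in the dark phase, so in that phase liver genes follow feeding and insulin as well as the circadian clock. Insulin lowers transcription of genes that the factor FOXO1 switches on in fasting, such as Igfbp1, and raises genes of fat synthesis such as Srebf1. The liver also holds its own macrophages, the Kupffer cells, which take up ageing neutrophils.

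Values are the authors' normalized signal, on a linear scale, in which 1 read was worth 0.0561 to 0.0978 units. Depth recovered from the values was 10.3 to 18.3 M reads in anti-Ly6G livers and 11.5 to 15.5 M in IgG livers. Of 14451 genes in the table, 12504 had a mean of at least 1 over the 36 liver libraries and were tested on log2(value + 1) with limma, with ZT as a covariate. Every log2 difference is anti-Ly6G minus IgG on that scale, which understates changes of low genes. Adjusted p-values are Benjamini-Hochberg values over those 12504 genes, a gene was called when its adjusted p was under 0.05, and p-values measure the spread between mice. Hepatocyte genes identified the tissue in every library, with 10 markers summing to 106981 to 130075 units in anti-Ly6G livers and 103393 to 126422 in IgG livers.

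Several libraries stood apart, and the called genes and some of the gene lists were also fitted without some of them. The differences of clock genes at ZT 13 and those of cholesterol synthesis genes were not refitted in this way. Replicate 1 of anti-Ly6G at ZT 13, replicate 1 of anti-Ly6G at ZT 21 and replicate 2 of IgG at ZT 13 had high acute phase values, with 483, 1611 and 623 units of Saa1 (serum amyloid A1) against 25.0 to 228 in the other 15. Replicate 2 of anti-Ly6G at ZT 13 had 462 units of Cyp2a4, a cytochrome P450 that is female-biased in mouse liver, against at most 7.00 in the other 17, and 582 units of Mup7, a male-biased urinary protein gene, against at least 3935. Replicate 2 of IgG at ZT 17 had the lowest summed Kupffer cell signal. Replicate 3 of anti-Ly6G at ZT 21 had the highest summed MHC class II and interferon-stimulated signals. These were 322 and 388 units, against at most 221 and 288 in the other libraries. Leaving out the 3 acute phase libraries left 2 mice per treatment at ZT 13 and 2 anti-Ly6G mice at ZT 21. Leaving out replicate 2 of anti-Ly6G at ZT 13 as well left 1 anti-Ly6G mouse at that time. Transcripts of Ddx3y, a Y-linked gene, lay between 50.6 and 82.8 units in all 18.

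The treatment effect changed with the hour of the night in a small set of genes. A test of whether the effect differed between ZT 13, 17 and 21 called 7 genes of 12504 (0.056%), and 1051 (8.41%) had an unadjusted p under 0.05. In 4 of the called genes, Igfbp1, Irf2bp2, Ip6k2 and the long noncoding RNA Gm37724, anti-Ly6G livers were above IgG livers at ZT 13 and 17 and below them at ZT 21. In Angptl8 and Inhbe they were below at ZT 13 and 17 and above at ZT 21, and in Srebf1 below at ZT 13 and above at ZT 21. Ip6k2 is named as the last of the 7 although the naming rule takes 6, a choice made after its values were seen.

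Igfbp1 encodes a secreted protein that binds insulin-like growth factors, and its transcription in liver is raised in fasting and shut down by insulin. It lies at chr11:7197782-7202546 (GRCm38, plus strand). The 250 bases before its start, at chr11:7197537-7197786 on the plus strand of GRCm38.p6 and taken from RefSeq, are shown because this gene had the largest differences of the 7 and because its promoter holds known letters through which insulin acts. Capitals mark the motif CAAAANAA, searched on both strands, which is a core of the insulin response element bound by FOXO1.

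Igfbp1: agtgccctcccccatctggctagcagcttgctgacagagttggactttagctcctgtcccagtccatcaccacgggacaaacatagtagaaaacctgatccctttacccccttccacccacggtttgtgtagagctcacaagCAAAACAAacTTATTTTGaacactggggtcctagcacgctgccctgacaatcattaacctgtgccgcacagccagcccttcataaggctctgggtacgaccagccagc

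The window holds 2 matches, 1 on each strand, starting 108 and 98 bases before the start. Of 32851 mouse promoters of that length, 7.157% hold the motif and 0.6362% hold it 2 or more times. Promoters were on record for 6 of the 7 called genes, and 2 of their 9 promoters hold a match, that of Igfbp1 and 1 of those of Srebf1. The Srebf1 match is the edge of an unbroken run of A that reaches the end of its window. A match describes the letters of the window and was not tested as a binding site in these livers.

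Igfbp1 had 43.0, 64.4 and 20.7 units in anti-Ly6G livers at ZT 13, against 1.52, 1.33 and 7.86 in IgG livers. At ZT 17 it had 44.5, 38.3 and 39.9 units in anti-Ly6G livers, against 11.8, 6.71 and 12.0 in IgG livers. At ZT 21 it had 8.20, 14.4 and 23.9 units in anti-Ly6G livers, against 39.3, 108 and 56.9 in IgG livers. The groups did not overlap at any of the 3 times, and the mean of the IgG livers was higher at each later time while that of the anti-Ly6G livers was lowest at ZT 21. The log2 differences were 3.41, 1.94 and -2.06 at ZT 13, 17 and 21 (SE 0.488 each), and they differed between times with an adjusted p of 0.00427. Without the 3 libraries of high acute phase values the adjusted p was 0.0856, and with limma's robust trend it was 0.0951.

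Irf2bp2 encodes a corepressor that partners the interferon regulatory factor IRF2 (chr8:126588296-126593986, minus strand). It had 48.4, 42.9 and 38.1 units in anti-Ly6G livers at ZT 13 against 17.5, 24.6 and 27.7 in IgG livers, and 46.6, 63.7 and 54.0 against 25.3, 30.6 and 25.1 at ZT 17. At ZT 21 it had 32.2, 32.7 and 26.3 units in anti-Ly6G livers against 48.3, 61.6 and 46.3 in IgG livers. Again no time showed overlap, and the order of the groups turned over between ZT 17 and 21. The log2 differences were 0.88, 0.99 and -0.75 (SE 0.160 each, adjusted p of the difference between times 0.00317), and the adjusted p was 0.0607 without the 3 acute phase libraries and replicate 2 of anti-Ly6G at ZT 13. It overlaps Gm26759 on the other strand, and without stated strand use reads of the pair cannot be told apart.

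Ip6k2 encodes an inositol hexakisphosphate kinase, an enzyme that makes inositol pyrophosphates (chr9:108783796-108806337, plus strand). Its values in anti-Ly6G livers were 44.0, 33.8 and 32.1 units at ZT 13, 34.1, 48.7 and 27.5 at ZT 17, and 21.9, 29.3 and 27.6 at ZT 21. In IgG livers they were 13.3, 15.4 and 14.5, then 18.3, 16.1 and 18.4, then 31.5, 38.2 and 27.6. The groups stood apart at ZT 13 and 17 and overlapped at ZT 21. The log2 differences were 1.28, 0.98 and -0.29 (SE 0.174 each, adjusted p 0.0218), and without the 3 acute phase libraries the adjusted p was 0.207. The call was also lost, with adjusted p-values of 0.0525 to 0.119, without replicate 1 or 3 of anti-Ly6G at ZT 21, replicate 1 or 3 of IgG at ZT 13, or replicate 1 or 2 of IgG at ZT 21. Gm37724, a long intergenic RNA at chr1:33065130-33066350, had 1.89 to 2.33 units in anti-Ly6G livers at ZT 21 against 3.74 to 5.15 in IgG livers. At the earlier times it had 4.03 to 7.87 units in anti-Ly6G livers and 1.37 to 2.72 in IgG livers. Its log2 differences were 0.94, 1.43 and -0.80 (SE 0.191 each, adjusted p 0.00317). It stayed called under all 28 alternatives in which it was tested, and a filter at a mean of at least 4 left it untested.

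The other 3 genes had the opposite order at ZT 13 and 21. Angptl8 encodes a liver hormone that rises on feeding and restrains lipoprotein lipase (chr9:21835510-21837347). It had 39.8, 43.9 and 62.8 units in anti-Ly6G livers at ZT 13 against 145, 72.0 and 146 in IgG livers, and 63.1, 81.8 and 66.2 against 110, 78.3 and 114 at ZT 17. At ZT 21 it had 93.9, 103 and 114 units in anti-Ly6G livers against 59.4, 33.4 and 32.4 in IgG livers. The groups overlapped at ZT 17 alone, and the highest means were those of ZT 21 in anti-Ly6G livers and of ZT 13 in IgG livers. The log2 differences were -1.25, -0.50 and 1.34 (SE 0.258 each, adjusted p 0.0120). The call was lost without replicate 3 of anti-Ly6G at ZT 21 (0.0562), without replicate 2 (0.0609) or 3 (0.0558) of IgG at ZT 21, and with limma's robust trend (0.106). Angptl8 lies inside Dock6 on the other strand, and the Dock6 effect did not differ between times past the threshold (adjusted p 0.740).

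Srebf1 encodes SREBP-1, the factor that drives fatty acid synthesis genes (chr11:60199089-60222581, minus strand). It had 527, 436 and 566 units in anti-Ly6G livers at ZT 13 against 707, 593 and 662 in IgG livers. At ZT 21 the values were 443.6, 408 and 600 units in anti-Ly6G livers against 243, 229 and 292 in IgG livers. Neither time showed overlap, whereas at ZT 17 the anti-Ly6G livers, at 409 to 473, and the IgG livers, at 407 to 436, overlapped. The log2 differences were -0.36, 0.08 and 0.91 (SE 0.133 each, adjusted p 0.0212). Without the 3 acute phase libraries the adjusted p was 0.0856, and leaving out replicate 1 or 3 of IgG at ZT 13, or replicate 1 or 2 of IgG at ZT 21, also ended the call, with values between 0.0525 and 0.0987.

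Inhbe encodes the subunit of activin E, a hormone secreted by hepatocytes that acts on fat tissue (chr10:127348857-127354411, minus strand). It had 27.6, 30.03 and 38.0 units in anti-Ly6G livers at ZT 13 against 48.0, 44.6 and 46.0 in IgG livers, and 34.9, 28.0 and 36.5 against 45.4, 39.0 and 44.1 at ZT 17. At ZT 21 it had 50.4, 40.7 and 41.7 units in anti-Ly6G livers against 29.7, 27.5 and 26.3 in IgG livers. The groups did not overlap at any time. The log2 differences were -0.53, -0.37 and 0.65 (SE 0.122 each, adjusted p 0.0120, 0.0984 without the 3 acute phase libraries, and 0.0550 or 0.0558 without replicate 2 or 3 of IgG at ZT 21).

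**Figure D1:**
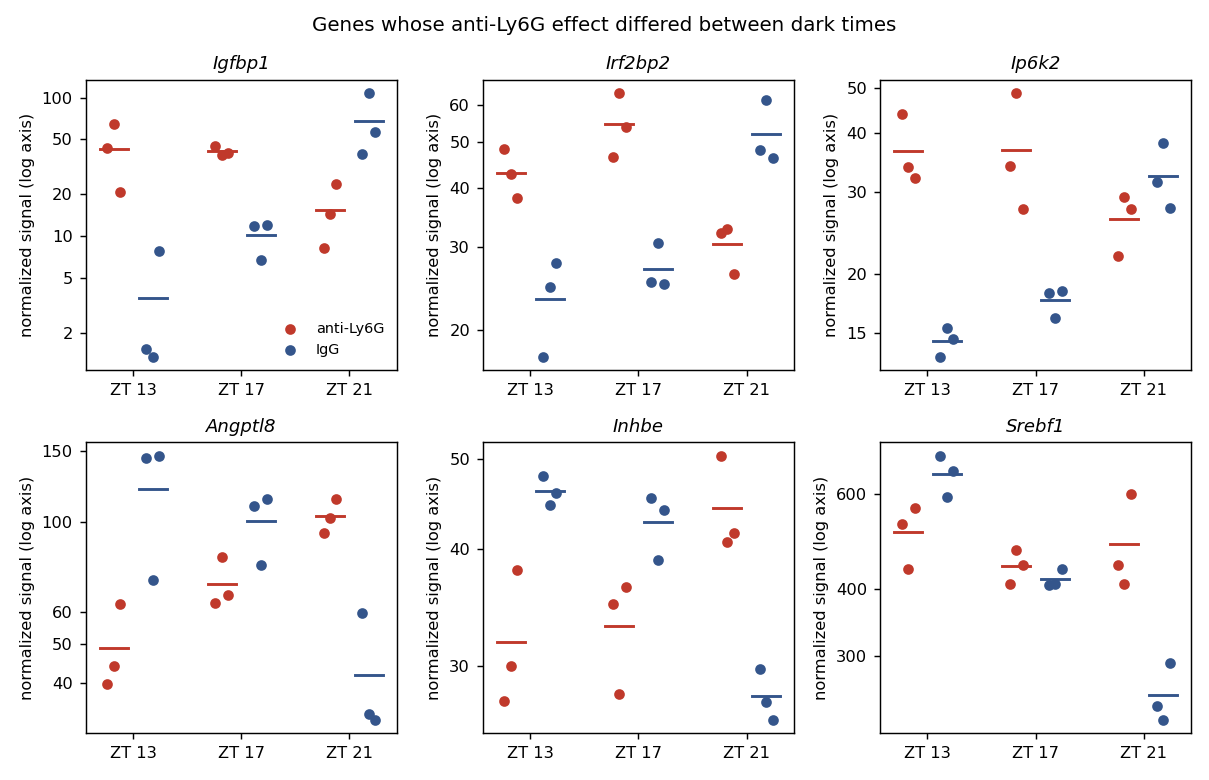
Normalized signal (log axis) of 6 genes at ZT 13, 17 and 21 in each anti-Ly6G (red) and IgG (blue) liver, with 1 point per mouse and a bar at the mean of 3. Igfbp1, Irf2bp2 and Ip6k2 were higher in anti-Ly6G livers at ZT 13 and 17 and lower on average at ZT 21, while Angptl8 and Inhbe showed the reverse order and Srebf1 crossed over between ZT 13 and 21.

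Other genes of the same pathways did not pass. Among 11 genes of gluconeogenesis and fasting, Igfbp1 was the 1 called. For the difference between times 4 of them had an unadjusted p under 0.05, against 8.41% of all genes. Irs2, an insulin receptor substrate that FOXO1 induces, had 11.4, 16.0 and 7.97 units in anti-Ly6G livers at ZT 13 against 5.53, 6.06 and 3.69 in IgG livers. It had, at ZT 21, 7.24, 12.1 and 17.6 units in anti-Ly6G livers against 25.0, 33.8 and 26.5 in IgG livers, so the groups were apart at both times and in opposite order (adjusted p 0.1299). Pck1, the rate-limiting enzyme of gluconeogenesis, had log2 differences of 1.52, 0.76 and -0.79 (adjusted p 0.548). Of 13 fatty acid synthesis genes, Srebf1 was the 1 called and 2 had an unadjusted p under 0.05, against 8.41% of all genes. Fasn, the synthase itself, had differences of -0.70, 0.14 and 0.68 (adjusted p 0.630). Foxo1 showed differences of 0.06, 0.06 and -0.03 (adjusted p 0.979).

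Beside these 7 genes, 1 transcript tied to RNA composition had the order of Igfbp1, Irf2bp2, Ip6k2 and Gm37724 at ZT 21, which is opposite to that of Angptl8, Inhbe and Srebf1. Gm42418, which overlaps a ribosomal RNA repeat, had 32.8, 21.0 and 27.7 units in anti-Ly6G livers at ZT 21 against 61.0, 63.8 and 52.7 in IgG livers, and 17.4 to 50.8 in the other 12 livers (adjusted p of the difference between times 0.0537). With a pseudocount of 5 in place of 1 it was called. Its part in the results above was not tested. The number of genes called was 7 or close to it under most settings, but was 3 without the 3 acute phase libraries, 2 when replicate 2 of anti-Ly6G at ZT 13 was left out as well, 11 without replicate 3 of anti-Ly6G at ZT 13, and 4 without replicate 2 of IgG at ZT 21.

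Averaged over the 3 dark times, 2 genes were called higher (0.016%) and 0 lower (0%). At an unadjusted p under 0.05, 675 genes (5.4%) were higher and 579 (4.63%) lower, voom weights called 0, and the median difference of all tested genes was 0.00, with 5th and 95th percentiles of -0.19 and 0.24. The called genes were Evl, an actin regulator of the Ena/VASP family found in blood and vessel cells, and Fabp7, a fatty acid-binding protein that Kupffer cells make in liver.

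Evl (chr12:108554720-108688516, plus strand) had 4.48, 4.89 and 4.05 units in anti-Ly6G livers at ZT 13 against 1.67, 2.08 and 2.44 in IgG livers. At ZT 17 it had 2.41, 2.34 and 3.63 against 1.29, 0.971 and 2.31 in IgG livers, and at ZT 21 3.75, 3.61 and 4.25 against 1.45, 2.78 and 2.14. Within each time every anti-Ly6G liver was above every IgG liver. The mean was 3.71 ± 0.866 units in anti-Ly6G livers and 1.90 ± 0.595 in IgG livers (SD, n = 9 each), a log2 difference of 0.70 (SE 0.114, fold 1.63, adjusted p 0.0428). An exon of Evl overlaps Degs2 on the other strand, which had 0.38 to 1.81 units in anti-Ly6G livers and 0.296 to 1.01 in IgG livers.

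Fabp7 (chr10:57784881-57788450, plus strand) had 1.49, 2.38 and 1.65 units in anti-Ly6G livers at ZT 13 against 0.697, 0.513 and 0.825 in IgG livers. At ZT 17 it had 2.37, 1.94 and 2.02 against 0.720, 0.562 and 1.19 in IgG livers, and at ZT 21 2.64, 1.52 and 2.03 against 0.928, 1.28 and 1.49. The groups were apart within each time, by little at ZT 21. The log2 difference was 0.66 (SE 0.109, fold 1.58, adjusted p 0.0428). Both calls sat close to the threshold. Both genes were low, Fabp7 most of all, in libraries where 1 read was worth 0.0561 to 0.0978 units. Evl stayed called under 8 of 33 alternatives and Fabp7 under 7, with adjusted p-values of up to 0.366, and both were 0.208 without the 3 acute phase libraries. With single libraries left out, Evl stayed called without replicate 2 of anti-Ly6G at ZT 17 and Fabp7 without replicate 2 of anti-Ly6G at ZT 21. Both stayed called without replicate 3 of IgG at ZT 17 or replicate 2 of IgG at ZT 21, and neither did without any other library. The number of genes called over the night was 0 in 12 of the 18 fits that left out 1 library, 13 without replicate 3 of IgG at ZT 17 and 4 without replicate 2 of IgG at ZT 21.

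The next genes by p-value did not pass. Chka, choline kinase alpha, the first step of phosphatidylcholine synthesis, had 58.0, 95.5 and 81.9 units in anti-Ly6G livers at ZT 13 against 47.7, 39.4 and 50.0 in IgG livers, and 144, 128 and 138 against 94.6, 93.8 and 93.7 at ZT 17. It had, at ZT 21, 136, 152 and 186 units in anti-Ly6G livers against 145, 129 and 116 in IgG livers, the 1 time with overlap. Its log2 difference was 0.52 (SE 0.092, adjusted p 0.0602), and without the 3 acute phase libraries its adjusted p was 0.00501. Tsc22d3, the glucocorticoid-induced leucine zipper, had 124 to 274 units (median 138) in anti-Ly6G livers against 72.6 to 123 (median 100.5) in IgG livers, without overlap, and a log2 difference of 0.68 (SE 0.135, adjusted p 0.0935). Cd44, a hyaluronan receptor of leukocytes, had 5.24 to 12.4 units in anti-Ly6G livers against 3.11 to 6.07 in IgG livers, with a log2 difference of 0.63 (adjusted p 0.0896). Parvg, a parvin of blood cells, had 0.99 to 3.19 units in anti-Ly6G livers against 0.216 to 0.984 in IgG livers (0.69, adjusted p 0.0935).

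The remaining genes named on the higher side had log2 differences between 0.39 and 0.85 and adjusted p-values of 0.0864 or 0.0935. They were Zfp750, Tifab, Vasn, Pik3cd (the phosphoinositide 3-kinase catalytic subunit of leukocytes), Acnat2 (an enzyme that conjugates fatty acids to amino acids) and Mndal, whose exons are shared with Ifi203. On the lower side Ces2c, a liver carboxylesterase, had 34.2, 45.2 and 76.4 units in anti-Ly6G livers at ZT 13 against 107, 135 and 113 in IgG livers. Over the night its range was 33.6 to 84.0 units in anti-Ly6G livers and 64.6 to 146 in IgG livers, with a log2 difference of -0.93 (SE 0.164, adjusted p 0.0602). F3, tissue factor, the starter of coagulation, had 1.37 to 2.97 units in anti-Ly6G livers against 2.51 to 4.88 in IgG livers (-0.55, adjusted p 0.0935). The clock output factor Tef, the glycine conjugating enzyme Glyat, the monoacylglycerol lipase Abhd6, the lipid droplet protein Fitm2, Zfp655, Rnf19b, Thap3, Cyp4v3, Fam126b and the glucuronosyltransferase Ugt2b38 had differences between -0.52 and -0.21 (adjusted p 0.0864 to 0.1004).

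**Figure D2:**
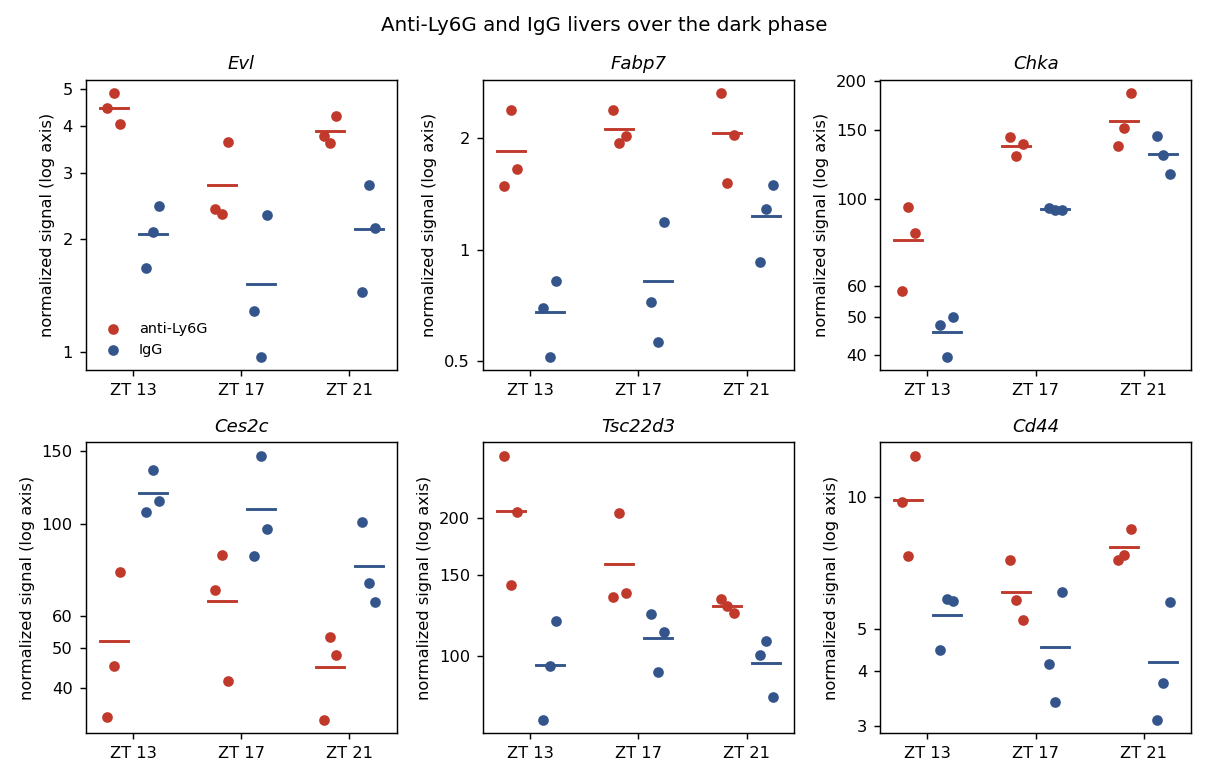
Normalized signal (log axis) of 6 genes at each dark time in anti-Ly6G (red) and IgG (blue) livers, with 1 point per mouse and a bar at the mean of 3. Evl and Fabp7 were higher in every anti-Ly6G liver than in any IgG liver of the same time, while Chka overlapped at ZT 21.

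Neutrophil genes themselves were close to the floor of these libraries. Ly6g, the target of the antibody, had 0.422 to 1.49 units in anti-Ly6G livers and 0.344 to 1.14 in IgG livers and was under the filter. S100a8, a calcium-binding protein abundant in neutrophils, had 0.377 to 1.27 units in anti-Ly6G livers and 0.103 to 0.469 in IgG livers, and S100a9, its partner, 0.457 to 1.61 in anti-Ly6G livers and 0.123 to 0.645 in IgG livers. These amounts are worth few reads, and liver RNA here gives no check of the depletion. Of 15 mature neutrophil genes, 4 were tested and 0 were called. Of the 4, 1 difference was positive and the median was -0.17. An unadjusted p under 0.05 was found for 2 of the 4, all lower, against 4.63% of all genes on that side. At ZT 13, Cxcr2 and G0s2 were lower without overlap, against 7.13% of all genes. Csf3r was higher without overlap at that time, against 7.22%. G0s2, also an inhibitor of fat breakdown in hepatocytes, had 25.0 to 89.5 units in anti-Ly6G livers and 44.0 to 162 in IgG livers (log2 difference -0.69, adjusted p 0.329). Of 13 neutrophil granule and oxidase genes, 5 were tested and 0 were called, all 5 differences were positive and the median was 0.45. Of the 5, 3 had an unadjusted p under 0.05, all higher, against 5.4% of all genes on that side. The 5 tested genes included Lcn2, which hepatocytes also make, and Cybb, a subunit of the phagocyte oxidase, which macrophages share. Cybb had 8.82 to 22.4 units in anti-Ly6G livers and 6.10 to 15.5 in IgG livers (log2 difference 0.53, adjusted p 0.256). Without the 3 acute phase libraries the median was 0.36 and 2 genes had an unadjusted p under 0.05. In bulk liver, fewer cells of a type and less RNA per cell cannot be told apart.

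Macrophage genes stood higher in anti-Ly6G livers, with the largest median at ZT 21 and none passing on its own. Of 16 Kupffer cell and macrophage genes, 0 were called, all 16 differences were positive, and 13 had an unadjusted p under 0.05, against 5.4% of all genes on that side. The median was 0.48 over the night and 0.18, 0.25 and 0.98 at ZT 13, 17 and 21. For the difference between times 4 of the 16 had an unadjusted p under 0.05, against 8.41% of all genes, with 0 called. Clec4f, a lectin made by Kupffer cells alone in mouse liver, had 107, 102 and 116 units in anti-Ly6G livers at ZT 21 against 44.8, 62.7 and 64.2 in IgG livers. Cd5l, a secreted protein of tissue macrophages, had 124, 73.2 and 93.0 against 23.9, 39.4 and 43.0 at that time. Neither gene overlapped at ZT 21, whereas both did at ZT 13 and 17. Over the list, 15 of 16 genes were higher without overlap at ZT 21, against 8.97% of all genes, 1 at ZT 17 against 5.67%, and 0 at ZT 13 against 7.22%. Over the night the log2 difference was 0.49 (SE 0.144, adjusted p 0.198) for Clec4f and 0.70 (SE 0.204, adjusted p 0.191) for Cd5l. Marco, a scavenger receptor, had the largest difference of the list, 1.08 (adjusted p 0.184), with 26.5 units in replicate 1 of anti-Ly6G at ZT 21, 4.57 to 8.72 in the other anti-Ly6G livers and 0.909 to 7.43 in IgG livers. Without the 3 acute phase libraries the median was 0.38 and 8 of 16 genes had an unadjusted p under 0.05. Summed signal of the list ran from 393 to 830 units in anti-Ly6G livers and from 300 to 618 in IgG livers.

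Genes of antigen presentation had positive medians at all 3 times. Of 8 tested genes of dendritic cells and MHC class II, 0 were called and all 8 differences were positive. Of the 8, 6 had an unadjusted p under 0.05, all higher, against 5.4% of all genes on that side. The median was 0.49 over the night, and 0.50, 0.42 and 0.70 at ZT 13, 17 and 21. H2-Ab1, a class II chain, had 20.3, 21.9 and 37.6 units in anti-Ly6G livers at ZT 13 against 15.7, 13.7 and 22.3 in IgG livers, and 17.5, 16.3 and 59.5 against 8.92, 20.3 and 16.7 at ZT 21. The groups overlapped at both times, with 1 anti-Ly6G liver far above at ZT 21. Its log2 difference was 0.62 (SE 0.225, adjusted p 0.306). Summed signal ran from 105 to 322 units in anti-Ly6G livers and from 55.3 to 155 in IgG livers, and without the 3 acute phase libraries the median was 0.54. The 322 units were those of replicate 3 of anti-Ly6G at ZT 21. Over 34 alternatives, with each library left out among them, the median ran from 0.36 to 0.67. Lists of other cells had medians over the night of 0.05 for sinusoidal endothelium, 0.11 for stellate cells and fibroblasts, 0.15 for monocytes, -0.01 for cholangiocytes, 0.16 for B and plasma cells and -0.07 for T and NK cells. Some of these medians rest on few genes. Tested were 5 of 10 monocyte genes, 6 of 8 cholangiocyte genes, 4 of 9 B and plasma cell genes and 2 of 13 T and NK cell genes. Several of the lists of other cells also had their largest median at ZT 21. At ZT 13, 17 and 21 the medians were -0.17, -0.05 and 0.35 for endothelium, 0.00, -0.02 and 0.29 for stellate cells, 0.01, 0.13 and 0.31 for monocytes, and -0.04, -0.10 and 0.22 for cholangiocytes. Their part in the Kupffer cell result was not tested.

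**Figure D3:**
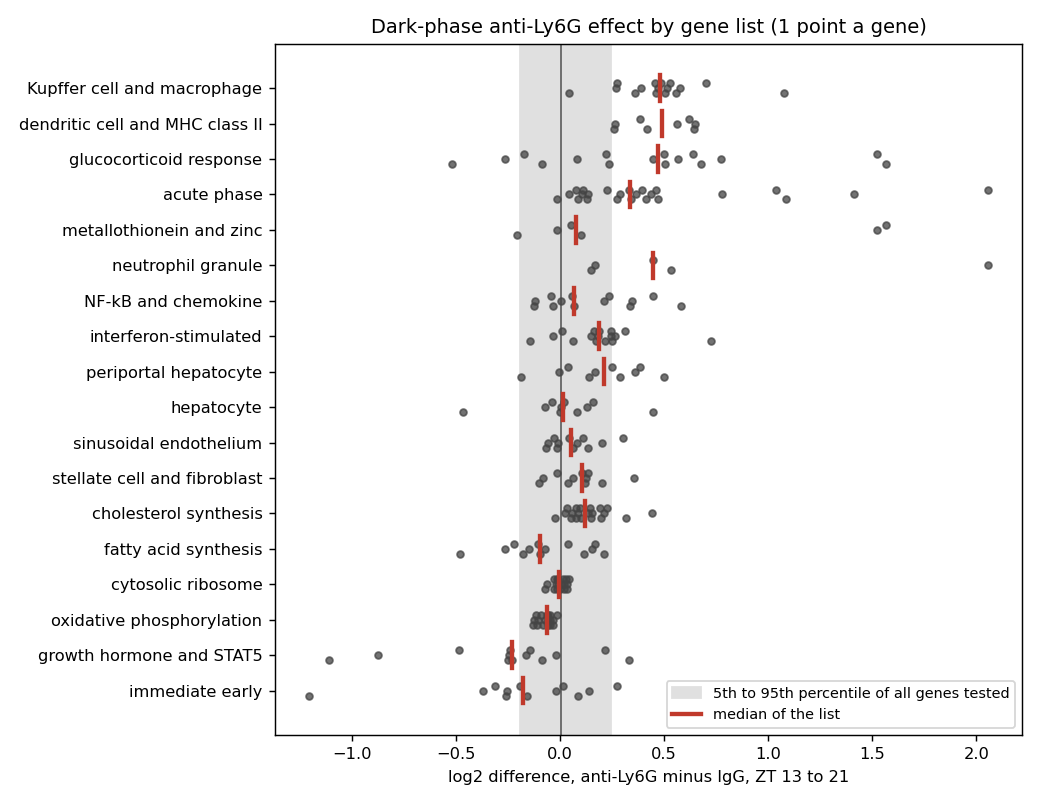
Log2 difference (anti-Ly6G minus IgG over ZT 13, 17 and 21) of each tested gene (points) in 18 gene lists, with the median of each list in red and the 5th to 95th percentile of all 12504 genes in grey. Kupffer cell, MHC class II, glucocorticoid response, acute phase and neutrophil granule lists had medians of 0.34 to 0.49, the last from 5 tested genes. Growth hormone and immediate early lists had medians of -0.23 and -0.18.

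Glucocorticoid targets, which the adrenal hormone corticosterone raises in liver, had their largest median at ZT 13. Of 16 such genes, 0 were called and 9 had an unadjusted p under 0.05, all higher, against 5.4% of all genes on that side. Of the 16 differences, 12 were positive, and the lowest was -0.52. The median was 0.47 over the night and 0.73, 0.27 and 0.18 at ZT 13, 17 and 21. Sgk1, a kinase induced by the hormone, had 29.7, 30.9 and 19.9 units in anti-Ly6G livers at ZT 13 against 10.6, 11.9 and 15.8 in IgG livers. Tat, tyrosine aminotransferase, a classical target, had 2520, 2057 and 1627 units there against 927, 954 and 1491. The groups did not overlap at ZT 13 for either gene, and over the night the log2 difference was 0.57 (SE 0.156, adjusted p 0.166) for Sgk1 and 0.45 (SE 0.139, adjusted p 0.223) for Tat. Fkbp5, another target, had a difference of 0.08 (adjusted p 0.973). Without the 3 acute phase libraries the median was 0.32 and 8 genes had an unadjusted p under 0.05. When replicate 2 of anti-Ly6G at ZT 13 was left out as well, the median was 0.20.

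Acute phase genes, the plasma proteins that hepatocytes raise under interleukin 6, had a median difference of 0.34 over 24 genes. None was called, 23 differences were positive and 12 had an unadjusted p under 0.05, all higher, against 5.4% of all genes on that side. Lcn2, lipocalin 2, which is also a granule protein of neutrophils, had a difference of 2.06 (SE 0.518, adjusted p 0.127), with 4.36 to 166 units (median 7.97) in anti-Ly6G livers and 1.45 to 8.04 (median 1.89) in IgG livers. The highest anti-Ly6G livers were the acute phase libraries, with 65.8 and 166 units, and the highest IgG liver was the third of them, with 8.04. Saa3, a serum amyloid A made mainly outside hepatocytes, had 5.18 to 23.4 units in anti-Ly6G livers and 2.29 to 9.86 in IgG livers, a difference of 1.09 (SE 0.250, adjusted p 0.1004). With the 3 libraries left out, Lcn2, Saa3 and Chka were the genes called over the night. The median of the acute phase list was then 0.20 and 11 of its genes had an unadjusted p under 0.05. The 3 libraries were picked by their acute phase values, and leaving them out alters the spread of such genes. For Lcn2, Saa3 and the list, this fit is therefore no independent test. Mt1 and Mt2, the metallothioneins, which also belong to the glucocorticoid list, had differences of 1.52 (adjusted p 0.188) and 1.57 (adjusted p 0.235), with 167 units of Mt1 in replicate 1 of anti-Ly6G at ZT 13, 3.74 to 48.1 in the other anti-Ly6G livers and 0.724 to 22.1 in IgG livers.

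The circadian clock runs on a loop in which BMAL1 (gene Arntl) and CLOCK activate the Per, Cry and Nr1d genes, whose products hold them back. No clock gene passed with a pseudocount of 1, and more of them were without overlap at ZT 13 than at ZT 17 or 21. Arntl had 12.8, 13.7 and 14.02 units in anti-Ly6G livers at ZT 13 against 7.91, 5.78 and 6.38 in IgG livers. Cry1, a repressor, had 39.4, 47.3 and 42.7 units there against 27.7, 26.9 and 24.7 in IgG livers. Dbp, an output gene, had 4.06, 3.462 and 3.80 units in anti-Ly6G livers against 9.89, 12.1 and 16.1 in IgG livers, and Per3 17.2, 18.5 and 18.3 against 27.0, 32.7 and 32.8. None of these 4 genes overlapped at ZT 13, with Arntl and Cry1 on the higher side and Dbp and Per3 on the lower. Per1, which also belongs to the glucocorticoid list, was higher without overlap at ZT 13 and 17. Of the 19 clock genes, 6 were higher without overlap at that time, against 7.22% of all genes, and 4 lower, against 7.13%. At ZT 17 the counts were 1 higher and 3 lower, against 5.67% and 5.59% of all genes, and at ZT 21 they were 1 and 2, against 8.97% and 8.13%.

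The log2 differences at ZT 13, 17 and 21 were 0.92, 0.17 and 0.25 for Arntl, 0.68, -0.02 and -0.06 for Cry1, -1.50, -0.20 and -0.24 for Dbp, and -0.74, -0.17 and -0.35 for Per3. The difference between times did not pass for any of the 19 core clock genes, with the lowest adjusted p at 0.307 for Cry1 and 0.471 for Dbp. Of the 19, 6 had an unadjusted p under 0.05 in that test, against 8.41% of all genes. With a pseudocount of 5 in place of 1, Dbp was called (adjusted p 0.0345) and no other clock gene was. Over the night 0 of the 19 were called and the median was -0.07. At an unadjusted p under 0.05, 2 were higher and 4 lower, against 5.4% and 4.63% of all genes. Without the 3 acute phase libraries these counts were the same and the median was -0.08. Arntl had a difference of 0.45 (adjusted p 0.117) and Tef, a relative of Dbp, one of -0.26 (adjusted p 0.0935).

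**Figure D4:**
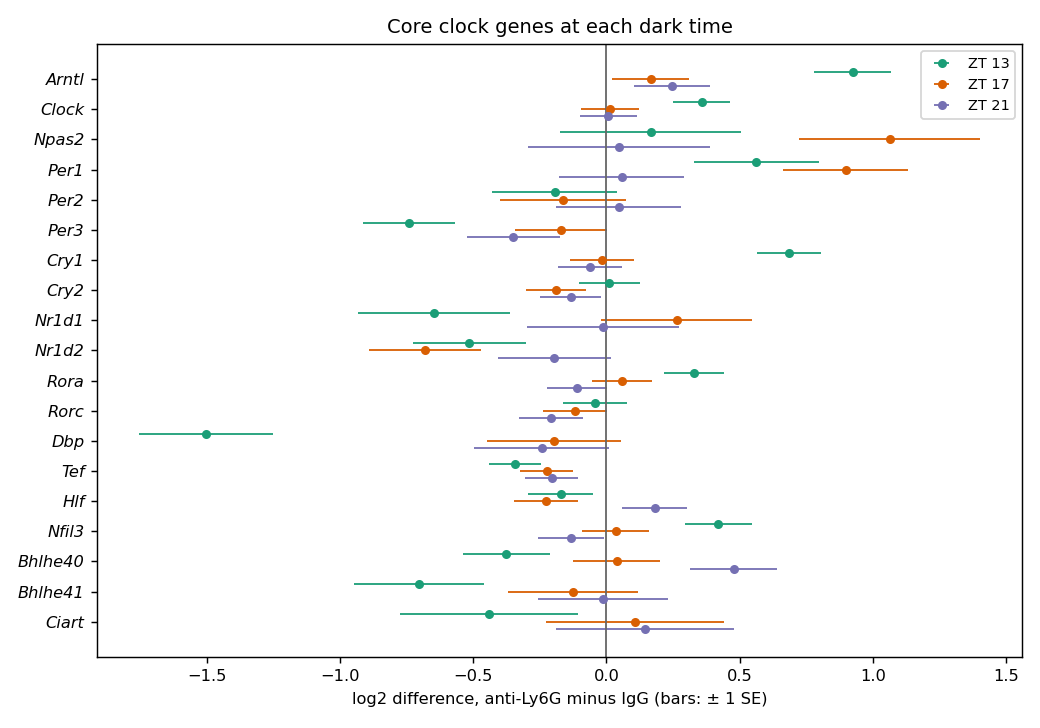
Log2 difference (anti-Ly6G minus IgG, bars ± 1 SE) of 19 core clock genes at ZT 13, 17 and 21, from 3 mice per treatment and time. At ZT 13 Arntl and Cry1 lay at 0.92 and 0.68 and Dbp and Per3 at -1.50 and -0.74, and at ZT 21 these 4 lay between -0.35 and 0.25.

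Genes that growth hormone drives through STAT5, many of them male-biased, had a median difference of -0.23 over 13 genes. None was called, 3 had an unadjusted p under 0.05, all lower, against 4.63% of all genes on that side. Without the 3 acute phase libraries and replicate 2 of anti-Ly6G at ZT 13, the median was -0.18, with 2 genes lower and 1 higher at an unadjusted p under 0.05. Cyp4a12a, a male-biased cytochrome P450, had 285 to 391 units in anti-Ly6G livers at ZT 17 and 21 and 468 to 613 in IgG livers, without overlap. At ZT 13 it had 202, 327 and 376 units in anti-Ly6G livers against 256, 383 and 372 in IgG livers, with overlap. Its log2 difference over the night was -0.48 (SE 0.116, adjusted p 0.114), and it was the 1 gene called when ZT 13 was left out. Cish, a feedback inhibitor that pulses of growth hormone induce, had 5.97 to 19.8 units in anti-Ly6G livers. In IgG livers it had 50.9 to 76.4 units in 6 of 9 and 3.04 to 5.61 in the other 3, for a difference of -1.11 (SE 0.556, adjusted p 0.530).

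The same contrast at ZT 1, 5 and 9 was used to test whether the effect differed between phases. The dark minus light difference of the treatment effect was called for 0 of 12504 genes (0%) by limma and for 0 with voom weights, and 1106 genes (8.85%) had an unadjusted p under 0.05, 585 of them (4.68%) with the dark effect above the light effect. The smallest p-values belonged to Polr1d, a subunit of RNA polymerases I and III, with a log2 difference of -0.15 in the dark and 0.12 in the light (adjusted p 0.290), and to Angptl4, an inhibitor of lipoprotein lipase that fasting and glucocorticoids raise, with -0.17 in the dark and 1.02 in the light (adjusted p 0.296). Tedc2 followed with -0.03 in the dark and 0.67 in the light (adjusted p 0.296). Without replicate 1 of anti-Ly6G at ZT 13, 3 genes were called, Angptl4, Polr1d and Slc45a3, and without the 3 acute phase libraries 5 were called, all with the dark effect below the light effect.

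No cholesterol synthesis gene passed for dark minus light. The 20 genes had a median difference of 0.12 in the dark and -0.37 in the light, and within the night the median was -0.15 at ZT 13, 0.21 at ZT 17 and 0.29 at ZT 21. For the difference between phases 14 of them had an unadjusted p under 0.05, all with the dark effect above, against 4.68% of all genes on that side. Hmgcs1, which makes the precursor of mevalonate, had 67.9, 185 and 197 units in anti-Ly6G livers at ZT 13 against 57.7, 164 and 190 in IgG livers. It had 285, 409 and 319 units in anti-Ly6G livers at ZT 17 against 178, 237 and 198 in IgG livers, and 510, 445 and 599 against 378, 405 and 345 at ZT 21. The groups overlapped at ZT 13 and were apart at ZT 17 and 21, and its log2 difference was 0.44 (SE 0.210, adjusted p 0.493) in the dark and -0.55 (SE 0.215) in the light, with an adjusted p of 0.429 for the difference. MHC class II genes had a median of 0.49 in the dark and -0.14 in the light, and 5 of 8 had an unadjusted p under 0.05, all with the dark effect above. The Kupffer cell list had medians of 0.48 in the dark and 0.13 in the light, with 3 of 16, all with the dark effect above. For both lists the share of all genes on that side was 4.68%. The glucocorticoid list had medians of 0.47 in the dark and 0.62 in the light, with 4 of 16, all with the dark effect below. In either direction the share of all genes was 8.85%. Evl and Fabp7 had light differences of 0.24 (SE 0.124) and 0.17 (SE 0.1297), and their dark minus light differences had adjusted p-values of 0.486 and 0.482.

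**Figure D5:**
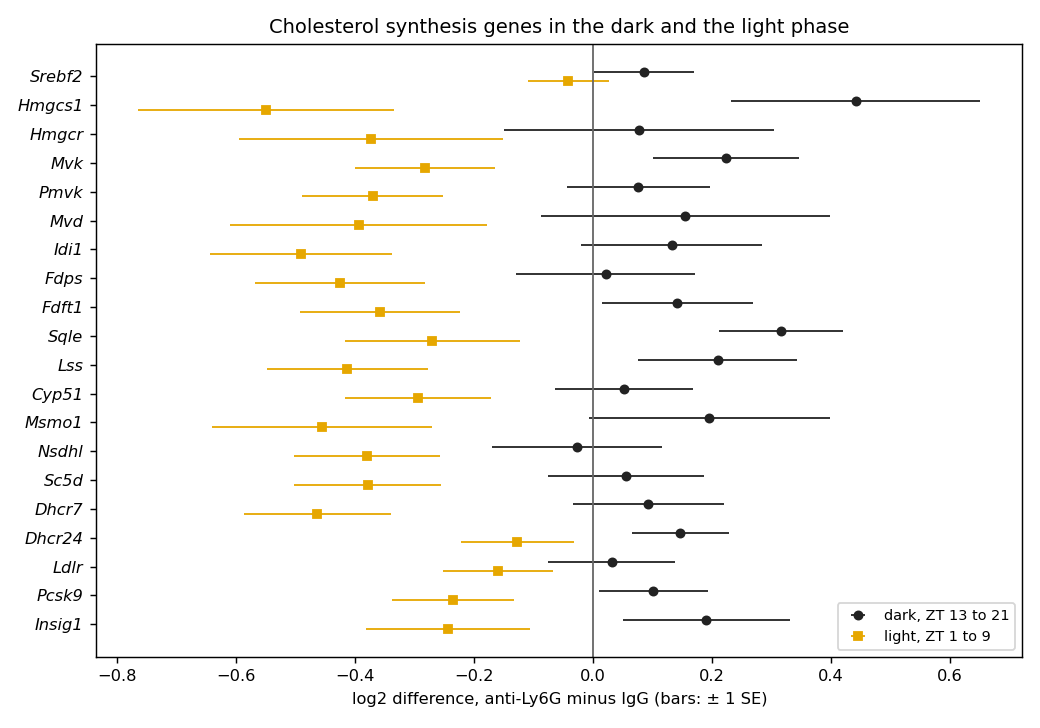
Log2 difference (anti-Ly6G minus IgG, bars ± 1 SE) of 20 cholesterol synthesis genes over the 3 dark times (black circles) and the 3 light times (yellow squares), from 9 mice per treatment and phase. All 20 light differences lay below 0, with a median of -0.37, and 19 of 20 dark differences lay above it, with a median of 0.12.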

How the data were processed

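Anti-Ly6G and IgG livers of ZT 13, 17 and 21 were compared, 9 a side, with groups taken from the labels. The liver table deposited by the authors holds normalized signal, not logged. Per the labels' protocols, 200 ng of RNA per sample went into NEBNext Ultra libraries, sequenced on a HiSeq2500 with 50 nt reads and quantified on the GRCm38 Ensembl 84 transcriptome with RSEM 1.2.20 and Kallisto 0.43.1. The submitters' processing notes name mm10, CASAVA 1.8, cutadapt 1.7.1, RSEM 1.7.1 and limma. The normalization method, the gene filter and the use of strand are not given in the sources used here. Multiplying a column by a constant gave values with at most 2 decimals in 100% of cases, of which 44.5% were whole, so the values behave as scaled expected counts and not whole reads.

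R 4.3.3 was used. Genes with a mean of at least 1 over the 36 liver libraries were fitted on log2(value + 1) with limma 3.58.1 (mean-variance trend, two-sided), with treatment and ZT as factors. The difference between dark times was the F test of the treatment by ZT terms. Dark minus light used one mean per treatment and ZT over all 36 libraries. The steps were tested on simulated data. Same-group libraries correlated at 0.980 to 0.990 over genes, and 0 pairs were identical.

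The comparison, the 48 gene lists and the naming rule were chosen with earlier results of these data known. The rule takes the 12 largest changes each way past the threshold, filled by smallest p where fewer pass, the 6 smallest interaction p-values past the threshold, the 3 smallest for dark minus light, up to 3 largest per list, and any member of the clock, glucocorticoid, acute phase, neutrophil and Kupffer lists. Gene symbols and coordinates (GRCm38) were matched in GENCODE M21, with 44 identifiers unmatched, and the promoter from RefSeq (GRCm38.p6). Outside the rule, Irs2, Fasn, Foxo1, Cyp2f2, Hal among periportal genes, Slc45a3, Gm42418, Ip6k2 and the genes that describe single libraries were named after their values were seen. Alternatives covered pseudocounts (0.1, 5), filters (none, mean of 4), scaling, weights, times and each library left out. Leaving out the libraries that stand apart was chosen after seeing the data.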

Additional observations from a re-analysis of the deposited data

Results flagged for a closer look

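For 7 genes the anti-Ly6G effect differed between ZT 13, 17 and 21 by a test of the difference itself. The adjusted p-values were 0.00317 for Gm37724, 0.00317 for Irf2bp2, 0.00427 for Igfbp1, 0.0120 for Inhbe, 0.0120 for Angptl8, 0.0212 for Srebf1 and 0.0218 for Ip6k2. In each of them the effect had opposite signs at ZT 13 and ZT 21. Groups at single times held 3 mice and were not tested for outlying samples.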

How the results depend on the processing

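The count of genes called over the dark phase, 2 in the fit reported, was 0 with a pseudocount of 0.1 and 1 with 5. It was 0 with a mean of at least 4, a filter that left Evl and Fabp7 untested. The count was 0 after quantile normalization, 0 with voom weights, 0 with array weights and 0 with no ZT term. It was 35 (21 higher, 14 lower) when the spread was estimated from all 36 liver libraries, 1 without ZT 13, 0 without ZT 17, 6 without ZT 21, and 0 to 13 when single libraries were left out, the 13 without replicate 3 of IgG at ZT 17. It was 3 without the 3 acute phase libraries and 3 when the anti-Ly6G library of high Cyp2a4 was left out as well, alternatives chosen after seeing the data. The 7 genes whose effect differed between times were 4 to 11 with single libraries left out, 3 without the 3 acute phase libraries and 2 without those and the library of high Cyp2a4. The 0 called for dark minus light was 1 with no filter, 3 without ZT 13, 5 without the 3 acute phase libraries and 0 to 3 with single libraries left out. The cause was not tested. Leaving out the 3 acute phase libraries left 2 mice per treatment at ZT 13. Leaving out the library of high Cyp2a4 as well left 1 anti-Ly6G mouse at that time. The part of these smaller groups in the lost calls was not tested. Of 1477 comparisons for named genes and lists, 1366 were the same, 77 lost the call, 32 gained it, 2 list medians moved and 0 genes reversed. A gene was the same when it kept direction and side of the threshold. A list median, which has no threshold, was the same when it shifted by less than the residual SD of the list mean. The 2 that moved were the core clock median, -0.17 without ZT 21, and the neutrophil granule median, 1.30 with a mean of at least 4. No paired analysis was possible because the labels give no replicate numbers that the treatments share. Low genes such as those of neutrophils rest on few reads.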

Other observations

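No gene of the lists below passed over the night. Of 16 interferon-stimulated genes, 14 differences were positive, with a median of 0.18. Of the 16, 3 had an unadjusted p under 0.05, all higher, against 5.4% of all genes on that side. Replicate 3 of anti-Ly6G at ZT 21 had a summed signal of 388 units, against at most 288 in any other dark-phase library. Its part in this result was not tested. Gbp2, a guanylate-binding protein that interferon gamma induces, had 4.33 to 12.4 units in anti-Ly6G livers and 2.12 to 5.38 in IgG livers (log2 difference 0.72, adjusted p 0.115). Of 10 periportal hepatocyte genes, 5 were higher and 1 lower at an unadjusted p under 0.05, against 5.4% and 4.63% of all genes. Their median was 0.21. Hal, histidine ammonia-lyase, had a difference of 0.25 (adjusted p 0.181), and Cyp2f2, another gene of that zone, one of -0.19 (adjusted p 0.279). All 18 genes of oxidative phosphorylation had negative differences, with a median of -0.06. Of the 18, 4 had an unadjusted p under 0.05, against 4.63% of all genes on the lower side. The 18 cytosolic ribosome genes had a median of -0.00, with 0 at an unadjusted p under 0.05.

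Immediate early genes, which signals switch on within minutes, had a median of -0.18 over 12 tested genes. Of the 12, 4 were lower at an unadjusted p under 0.05, against 4.63% of all genes on that side. Without the 3 acute phase libraries the median was -0.16 with 2 genes lower, and without those and the library of high Cyp2a4 it was -0.15 with 0. Myc, a growth factor-induced transcription factor, had 2.03 to 11.3 units in anti-Ly6G livers. In IgG livers it had 11.2 to 47.5 units in 6 of 9 and 1.47 to 1.86 in the other 3, which were the 3 livers of low Cish (log2 difference -1.21, SE 0.453, adjusted p 0.323).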
